A study of Mus musculus with 12 samples.

Results

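The enzymes that make cholesterol and fatty acids, with the regulators that set their transcription, were followed across 3 treatments of mouse kidney tubuloids. The 33 genes were taken by symbol from the 20819 genes of the deposited table: 7 regulators and sterol handlers, 18 enzymes of the sterol arm and 8 enzymes of the fatty acid arm. Each symbol matched 1 row, all 33 genes are protein coding, and all 33 passed the filter on low values together with 14525 other genes. Tubuloids are clusters of tubular epithelial cells, grown here in Matrigel from the dissected renal cortex of 4 wildtype mice. They received vehicle, myoglobin (the haem protein of muscle, used in the study to injure tubules) or myoglobin together with 100 nM dexamethasone, a synthetic glucocorticoid, and total RNA was taken after 12 h and made into messenger RNA libraries. Each treatment has 4 libraries, and there was no group with dexamethasone alone. The labels do not say whether libraries of 1 treatment come from different mice, so the p-values measure only the spread between these libraries.

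Cells adjust sterol and fatty acid synthesis through the SREBP transcription factors, which are made as precursors in the membrane of the endoplasmic reticulum. The escort protein SCAP carries them to the Golgi, where proteases release the active factor, and INSIG proteins hold SCAP back while sterols are plentiful. The Srebf2 product acts mainly on the enzymes of cholesterol synthesis and the Srebf1 product mainly on those of fatty acid synthesis, often next to NF-Y, a factor that binds the CCAAT box. Renal tubules are known to gain cholesterol after acute injury.

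RefSeq promoter windows of build GRCm38.p6, from 250 bases before to 50 bases after an annotated transcript start, were matched for 26 of the 33 genes. The 250 bases before the start are shown for the 3 sterol enzymes with such a window and the largest change with myoglobin (Mvd, Lss and Idi1), for Hmgcs1, the only member whose window holds the sterol element searched, and for Fasn of the fatty acid arm. Capitals mark matches, on either strand, to CCAAT, which reads ATTGG when it lies on the opposite strand, or to TCACNCCAC, a form of the sterol regulatory element.
Mvd, chr8:122443423-122443672, minus strand: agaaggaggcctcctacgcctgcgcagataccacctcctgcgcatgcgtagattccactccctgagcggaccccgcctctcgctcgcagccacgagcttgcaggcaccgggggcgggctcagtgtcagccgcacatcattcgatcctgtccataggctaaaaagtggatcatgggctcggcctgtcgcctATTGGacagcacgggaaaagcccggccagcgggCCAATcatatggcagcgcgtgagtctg
Lss, chr10:76531355-76531604, plus strand: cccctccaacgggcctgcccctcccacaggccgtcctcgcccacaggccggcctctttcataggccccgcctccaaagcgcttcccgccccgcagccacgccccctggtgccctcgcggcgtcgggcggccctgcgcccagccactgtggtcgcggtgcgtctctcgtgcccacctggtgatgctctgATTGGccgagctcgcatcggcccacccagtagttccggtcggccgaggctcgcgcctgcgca
Idi1, chr13:8885356-8885605, plus strand: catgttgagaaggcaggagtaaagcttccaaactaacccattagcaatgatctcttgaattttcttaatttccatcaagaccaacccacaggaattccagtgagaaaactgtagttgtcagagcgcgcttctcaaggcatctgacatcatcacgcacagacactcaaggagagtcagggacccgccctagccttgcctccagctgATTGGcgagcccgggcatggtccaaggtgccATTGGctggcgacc
Hmgcs1, chr13:119690101-119690350, plus strand: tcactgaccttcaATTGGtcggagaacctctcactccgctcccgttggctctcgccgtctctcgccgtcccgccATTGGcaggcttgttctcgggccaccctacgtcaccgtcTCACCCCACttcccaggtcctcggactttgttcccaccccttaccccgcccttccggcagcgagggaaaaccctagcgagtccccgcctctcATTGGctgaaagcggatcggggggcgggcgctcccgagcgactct
Fasn, chr11:120824548-120824797, minus strand: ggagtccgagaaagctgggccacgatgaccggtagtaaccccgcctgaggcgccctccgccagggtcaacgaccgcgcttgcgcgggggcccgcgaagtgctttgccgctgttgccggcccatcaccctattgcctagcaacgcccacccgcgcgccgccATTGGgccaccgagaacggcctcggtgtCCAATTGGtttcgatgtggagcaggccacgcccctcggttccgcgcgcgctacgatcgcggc
The CCAAT box was present in a window of 14 of the 15 sterol arm genes that have one, against 41.1% of the 27025 genes with windows of this length, and Acat2 was the exception. At least 2 boxes stood in a single window for 9 of these 15 genes, against 13.3% of all genes. In the fatty acid arm 2 of 5 genes held a CCAAT box (Acly and Fasn) and Acaca, Elovl6 and Fads2 held none, and among the regulators 5 of 6 held one. TCACNCCAC was found in Hmgcs1 alone, 137 bases before its start, against 1.44% of all genes. The GC box GGGCGG, a site of Sp1, was found in 14 of 15 sterol arm genes, 2 of 5 fatty acid arm genes and 6 of 6 regulators, against 38.2% of all genes. The E-box CACGTG, which SREBPs can also bind, was found in Hsd17b7, Dhcr7, Sc5d, Insig1 and Scap, against 8.09% of all genes. In Fasn a direct and an inverted CCAAT box overlap by 2 bases. A match shows letters in a window, not binding.

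**Figure D1:**
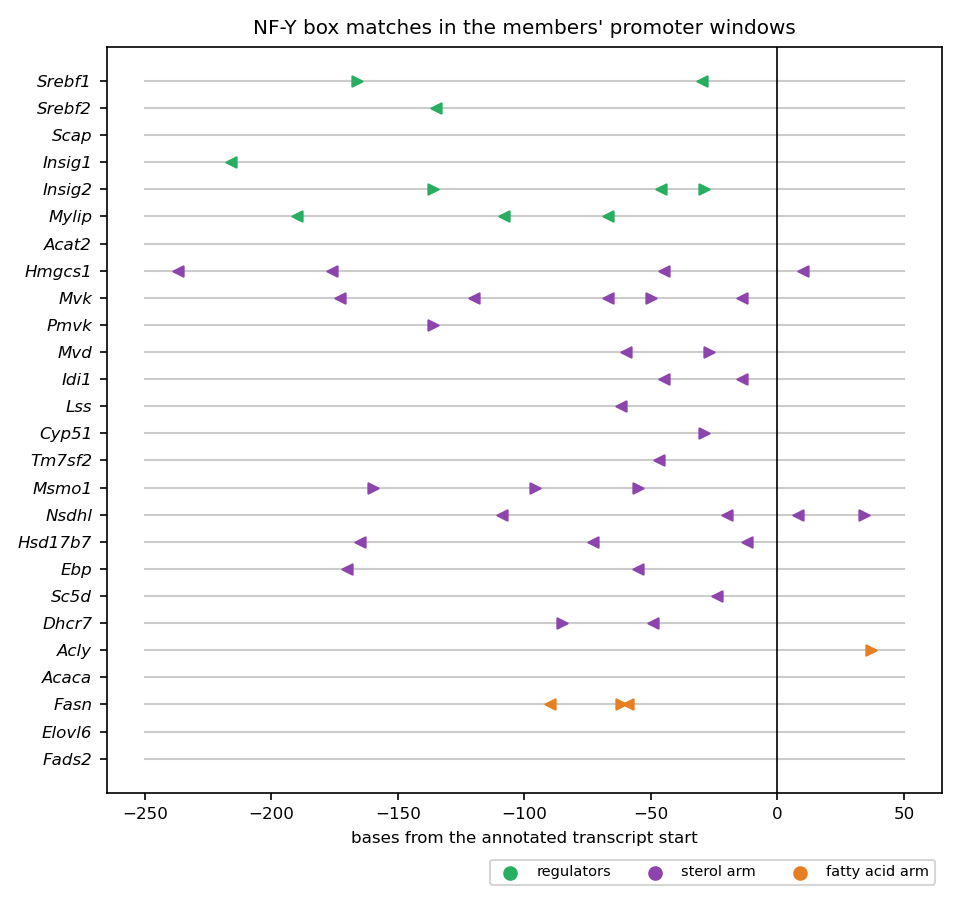
Matches to the box bound by NF-Y in the promoter windows of the 26 members that have one; the x axis is the distance in bases from the annotated transcript start, a triangle pointing right or left is a match on the gene's own or the opposite strand, and several windows of a gene share its line. Of the sterol arm genes, 14 of 15 carry a match, and 2 of 5 of the fatty acid arm do.

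Per kb of exon, the highest vehicle level among the members was that of Scd2, a stearoyl-CoA desaturase that puts the double bond into saturated fatty acids, at 515 normalised reads per kb. Fads2, a desaturase of polyunsaturated fatty acids, followed at 325, Scd1 at 315.5, Acly, which makes cytosolic acetyl-CoA from citrate, at 299, and fatty acid synthase (Fasn) at 268. The sterol arm lay below these, with Hmgcs1, which condenses acetyl units to HMG-CoA, highest at 252.7. Its lowest were the farnesyl diphosphate synthase gene Fdps at 25.5 and Idi1, the isomerase of isoprene units, at 21.3. Fads1 and Elovl6 of the fatty acid arm stood inside the sterol range, at 224.6 and 202.2. Acaca, the acetyl-CoA carboxylase that commits carbon to fatty acids, stood at 25.7. The transcripts of Acaca and Idi1 have near-identical processed pseudogenes (99.2% identity over 6118 bases and 100% over 684 bases in GENCODE M21). Those of Acat2, Fdft1, Elovl6 and Scd2 also share stretches of at least 95% identity with another gene on the same strand. How reads that fit several places were counted is not given in the sources used here, so the levels and changes of these 6 genes are uncertain. The stretch of Scd2 matches a transcript of Scd1 (95.5% over 623 bases), so this holds for Scd1 as well. Transcripts of Fdft1, Hmgcs1 and Idi1 also match an opposite-strand transcript at 100% identity, over 774, 462 and 323 bases. Acat2 matches 1 at 98.7% over 445 bases. Whether these matches lie at the same place in the genome was not checked. The library kit keeps the strand, but the counting setting is not given.

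**Figure D2:**
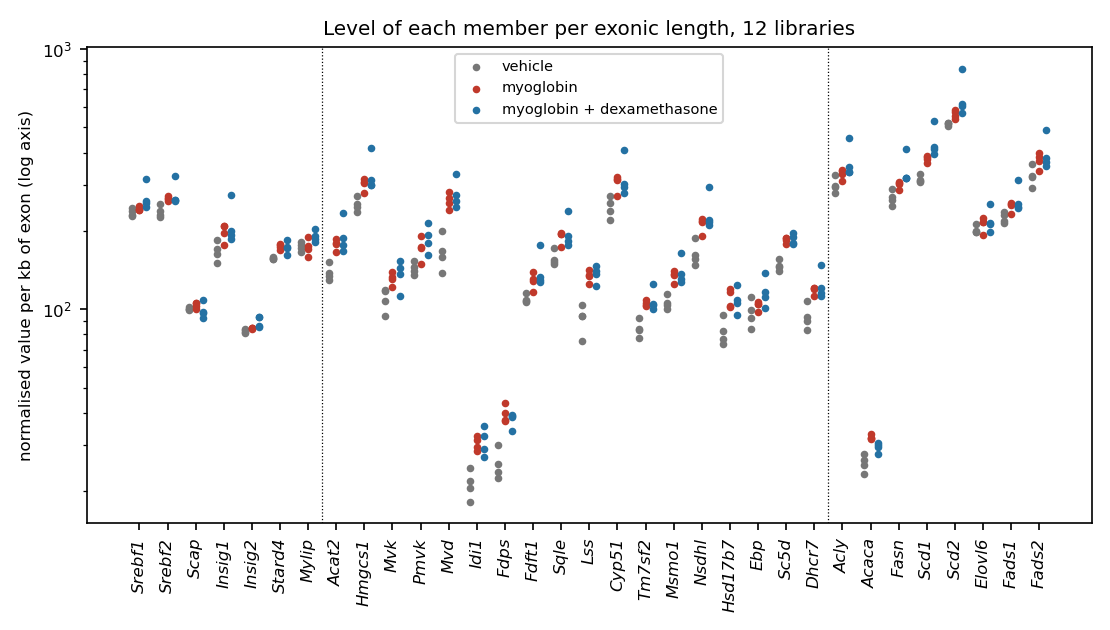
Normalised value per kb of exon (log axis) of each member in the 12 libraries, coloured by treatment, with dotted lines between regulators, sterol arm and fatty acid arm. Scd2 is highest at a vehicle mean of 515, and Idi1, Fdps and Acaca lie lowest.

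Summed over genes, a library holds 5.25 to 5.73 M of scaled reads, and the lowest single value among the members is 64. These are scaled values and not raw counts, so how far depth limits the members cannot be told from them. Replicate 4 of myoglobin with dexamethasone stands apart, with 2179 genes at 0 against 1051 to 1544 in the other libraries. Hmox1, which breaks down haem, went from 113 ± 7.72 (SD, n = 4) with vehicle to 460 ± 13.7 with myoglobin. The glucocorticoid target Fkbp5 went from 242.5 ± 15.4 with myoglobin to 554 ± 45.0 with both agents. All 6 epithelial markers were measured, with a summed value of 7286 to 7528 with vehicle, 6877 to 7310 with myoglobin and 7405 to 10274 with both agents. Of the proximal tubule markers, Lrp2 was present at a vehicle mean of 233, Cubn, Slc34a1 and Slc5a2 lay below 6 and Aqp1 at 12.8, so most defining markers of that segment were near 0 (Slc5a12 and Slc22a6 matched no gene symbol of the deposited table). Of 6 adipocyte markers, Retn and Cfd together summed to 1 to 7 and the others matched no gene symbol of that table. The 5 endothelial markers summed to 5 to 15. Immune markers summed to 538 to 606 with vehicle, 425 to 467 with myoglobin and 487 to 540 with both agents, with Ptprc highest at means of 447, 342 and 423. Podocyte markers summed to 666 to 991, 569 to 799 and 612 to 723, with Podxl highest, and fibroblast markers to 84 to 151, 78 to 143 and 59 to 82, with Col3a1 highest at a vehicle mean of 33.5. The part of these cells in the results was not tested. In such bulk samples fewer cells of a type and less RNA per cell cannot be told apart.

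The first comparison asks what myoglobin does to the pathway without a glucocorticoid. The sterol arm rose almost as a whole: 15 of its 18 enzymes were higher and 0 lower (limma-trend on log2 of the value plus 1, Benjamini-Hochberg adjusted p below 0.05 over 14558 genes). Of all genes tested, 8.71% were called higher and 9.62% lower. The median change of the arm was 0.33 on the log2 scale, with a range of 0.10 to 0.67, against a median of 0.00 over all tested genes. In the fatty acid arm 2 of 8 enzymes rose (median 0.16), and of the 7 regulators 1 rose (median 0.05). No member was called lower. The myoglobin libraries all lay above the vehicle libraries for 16 of 18 sterol enzymes, 3 of 8 fatty acid enzymes and 2 of 7 regulators, where 12.9% of all genes had groups apart in this direction.

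Replicate 4 of myoglobin with dexamethasone takes no part in these changes but shares in the estimate of the spread. Without it, 17 of 18 sterol enzymes, 7 of 8 fatty acid enzymes and 3 of 7 regulators were called higher, while 13.2% of all genes were. The enzymes gained are Pmvk and Fdft1 in the sterol arm and Acly, Fasn, Scd2, Fads1 and Fads2 in the fatty acid arm, and the regulators gained are Srebf2 and Insig1. The gap in calls between the arms is thus 15 of 18 against 2 of 8 with that library and 17 of 18 against 7 of 8 without it, and the difference between the arms was not tested. The sizes of the changes are the same in both fits. Leaving out any of vehicle replicates 1 to 3 or myoglobin replicates 2 to 4 ended the calls of Cyp51, Hmgcs1, Mvk and Sqle. Scd1 lost its call without vehicle replicate 2 or 3 or myoglobin replicate 2, and Stard4 without vehicle replicate 3 or myoglobin replicate 3 or 4. Without replicate 2 under both agents Cyp51, Hmgcs1 and Mvk were lost, and without its replicate 3 Mvk was. The other 12 members called kept their call without any 1 library.

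**Figure D3:**
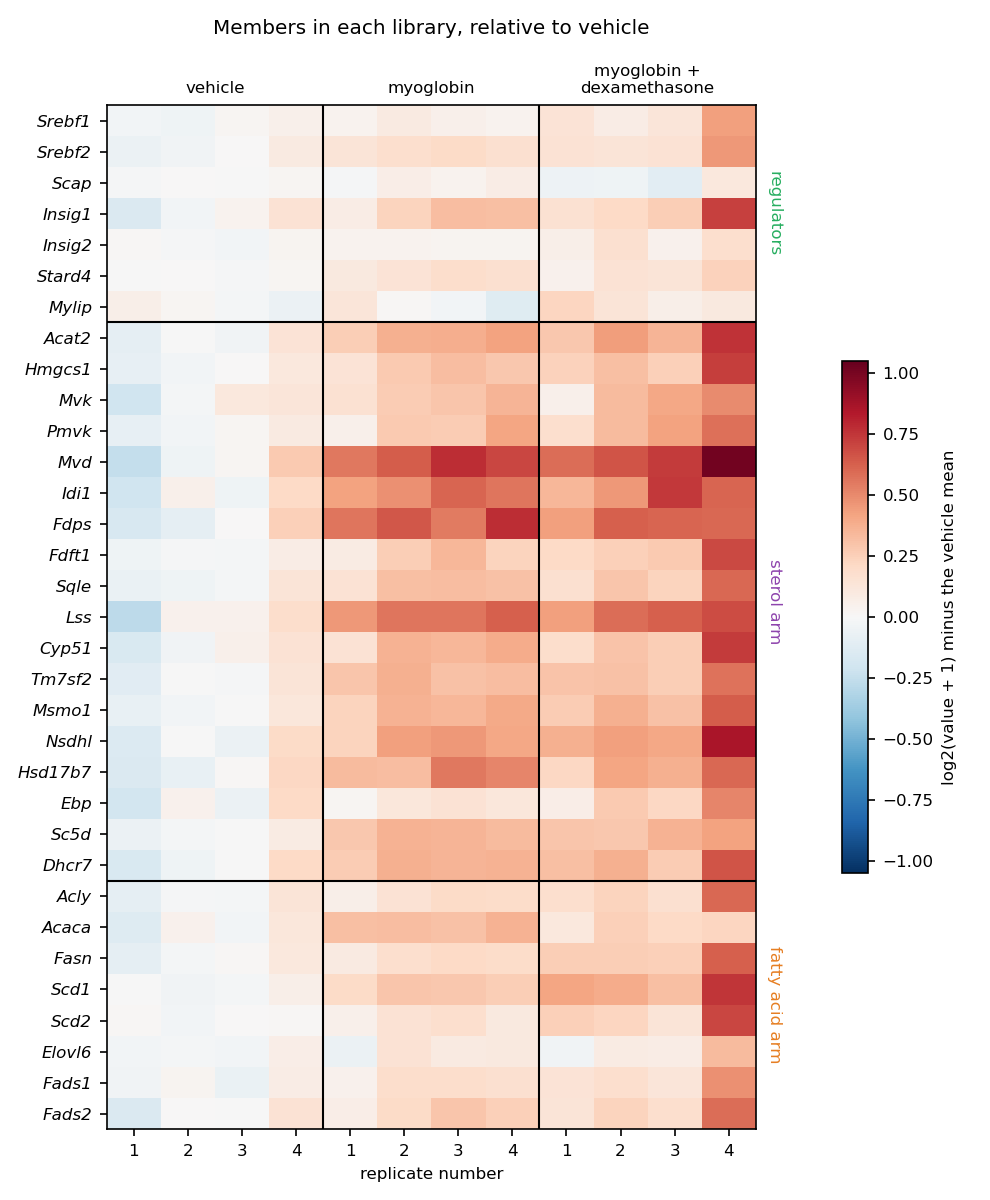
Each row is a member and each column a library (replicates 1 to 4 of each treatment); colour gives log2 of the value plus 1 minus the vehicle mean of that gene, with red for higher. The sterol arm is mostly red in the myoglobin libraries, but Ebp in replicate 1, at 225, is close to its vehicle mean of 223.5. Replicate 4 of myoglobin with dexamethasone is the reddest column for 29 of the 33 members.

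Among the regulators, the SREBP genes moved little. Srebf1 read 1298, 1280, 1340 and 1374 with vehicle and 1359, 1409, 1373 and 1355 with myoglobin, and the groups overlap (change 0.05 ± 0.061 SE, limma adjusted p 0.604). Srebf2 read 1627, 1660, 1710 and 1818 with vehicle and 1865, 1921, 1955 and 1911 with myoglobin. Its groups do not overlap, and its change of 0.17 ± 0.063 had an adjusted p of 0.0798, and of 0.00101 without replicate 4 of myoglobin with dexamethasone. Insig1, itself a target of SREBP in the feedback loop, read 464, 505, 529 and 573 against 546, 608, 647 and 644. Only the lowest myoglobin library reaches into the vehicle range, and the change was 0.24 ± 0.10 (adjusted p 0.123, and 0.0103 without that replicate). Insig2, the second retention protein, and Scap, the escort, stood at 0.03 ± 0.046 and 0.04 ± 0.045. Mylip, an LXR target that marks lipoprotein receptors for degradation, stood at -0.0047 ± 0.053. Stard4, a carrier that moves cholesterol between membranes, was the regulator that rose, by 0.15 ± 0.041. Its vehicle libraries lay between 869 and 887 and its myoglobin libraries between 942 and 996, with no overlap.

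The early sterol steps make isoprene units from acetyl-CoA. Mvd, the mevalonate diphosphate decarboxylase (ENSMUSG00000006517, chromosome 8, 122433601 to 122443422, mm10), had the largest change of all members. It read 257, 296, 310 and 371 with vehicle and 449, 476, 523 and 499 with myoglobin, a rise of 0.67 ± 0.10 (1.59-fold, limma adjusted p 1.94e-04). Every myoglobin library lies above every vehicle library. Fdps (ENSMUSG00000059743, chromosome 3, 89093588 to 89101959), which builds farnesyl diphosphate, read 95, 100, 107 and 127 against 158, 168, 156 and 183, a rise of 0.63 ± 0.093. Idi1 read 64, 77, 72 and 86 against 100, 104, 114 and 110 and rose by 0.52 ± 0.11. Both sets of libraries are apart, with the highest vehicle value in replicate 4 for either gene. Acat2, which joins acetyl-CoA units, rose by 0.36 ± 0.084, from 352 ± 25.4 to 452 ± 21.7. Hmgcs1 and Mvk, the mevalonate kinase, rose by 0.26 ± 0.087 and 0.27 ± 0.089, close to the threshold (adjusted p 0.0499 and 0.0484). Pmvk, the next kinase, missed it narrowly at 0.25 ± 0.085 (adjusted p 0.0503), with vehicle libraries from 231 to 262 and myoglobin libraries from 255 to 328.

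The later steps turn squalene into cholesterol. Lss, the lanosterol synthase that closes the sterol rings (ENSMUSG00000033105, chromosome 10, 76531588 to 76557138), read 812, 1015, 1013 and 1121 with vehicle and 1350, 1451, 1456 and 1522 with myoglobin. It rose by 0.55 ± 0.081 (1.47-fold), and its groups are far apart. Sc5d, the lathosterol oxidase (ENSMUSG00000032018, chromosome 9, 42251595 to 42264256), read 682, 705, 712 and 757 against 866, 917, 913 and 900, a rise of 0.33 ± 0.043 with the smallest adjusted p of the members (5.33e-05). Hsd17b7, a ketosteroid reductase of the demethylation steps, rose by 0.43 ± 0.087, from 418 ± 47.1 to 563 ± 46.8. Nsdhl, its partner dehydrogenase, rose by 0.38 ± 0.096 and Msmo1, the methylsterol oxidase, by 0.34 ± 0.070. Dhcr7, which makes the last reduction to cholesterol, rose by 0.34 ± 0.082, and Tm7sf2, a sterol reductase, by 0.32 ± 0.066. Cyp51, the lanosterol demethylase, and Sqle, the squalene epoxidase, rose by 0.31 ± 0.10 and 0.27 ± 0.078. The 2 late enzymes that did not pass were Fdft1, the squalene synthase, at 0.23 ± 0.087 with groups apart (449 to 487 against 492 to 589), and Ebp, a sterol isomerase, at 0.10 ± 0.092 with overlapping groups (194 to 257 against 225 to 247). Ebp alone of the sterol arm also failed without replicate 4 of myoglobin with dexamethasone.

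In the fatty acid arm, Acaca (ENSMUSG00000020532, chromosome 11, 84129672 to 84401651) read 398, 450, 429 and 476 with vehicle and 546, 549, 543 and 564 with myoglobin. It rose by 0.33 ± 0.052 (limma adjusted p 2.65e-04), and its groups are apart. Scd1 read 1537, 1505, 1518 and 1614 against 1777, 1890, 1873 and 1850 and rose by 0.26 ± 0.071. Its paralog Scd2 read 2837, 2756, 2819 and 2845 against 2928, 3132, 3185 and 3018, apart but by a smaller margin (0.12 ± 0.090). Fasn read 2740, 2883, 2950 and 3168 against 3132, 3304, 3383 and 3356, where replicate 1 of myoglobin lies below replicate 4 of vehicle (0.17 ± 0.076). Acly stood at 0.15 ± 0.081, Fads1 at 0.15 ± 0.068 and Fads2 at 0.20 ± 0.087. Elovl6, which lengthens saturated fatty acids, stood at 0.07 ± 0.066, with vehicle libraries from 1274 to 1365 inside the myoglobin range of 1244 to 1446. Among the vehicle libraries replicate 1 was lowest for 25 of the 33 members and replicate 4 highest for 32, and replicate 1 was lowest for 27 among the myoglobin libraries.

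Members differ in how densely their exons are covered. Value per exonic base ran from 0.0277 (Idi1) to 0.577 (Scd2), and 5 of the 8 fatty acid enzymes (Acly, Fads2, Fasn, Scd1 and Scd2) lay above 0.3, where 0 of the 18 sterol enzymes lay. Across the 33 members, the change with myoglobin tended to be smaller at higher values per base (Spearman rho -0.315, across genes that share libraries). Over all tested genes the class median went the other way, from -0.13 below 0.03 to 0.04 above 0.3. The part of coverage in the difference between the arms was not tested.

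**Figure D4:**
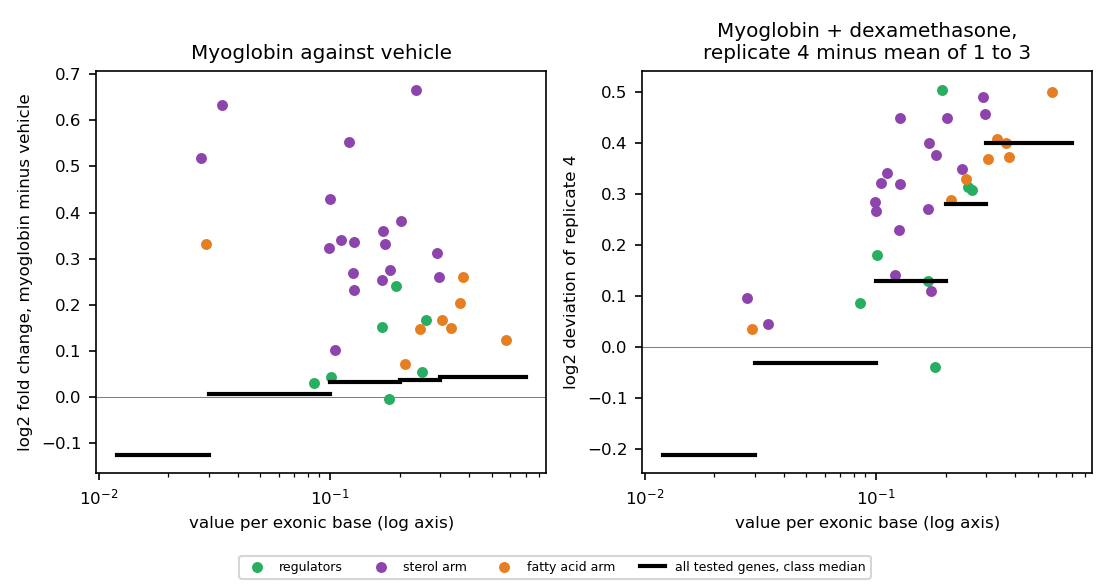
Left, log2 fold change with myoglobin against value per exonic base (log axis) for each member; right, the log2 deviation of replicate 4 of myoglobin with dexamethasone from the mean of replicates 1 to 3. Black bars are medians of all tested genes in 5 classes, with the outermost bars ended at the plotted range. The deviation of replicate 4 is positive for 32 of 33 members and is larger where coverage is denser.

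Genes around the pathway were read from 4 further lists. Over all genes tested, 8.71% were called higher and 9.62% lower with myoglobin, and the lists were not tested against these shares. Of 19 genes of SREBP transport, cleavage and turnover, 5 rose and 1 fell with myoglobin (median 0.07). Rnf145, a sterol-sensitive ubiquitin ligase of the endoplasmic reticulum, rose by 0.58 ± 0.046, from a mean of 999 to 1497, and Sec24b, a coat protein of the vesicles that leave it, by 0.32 ± 0.044. Of 21 genes of LXR signalling and cholesterol efflux, 1 rose and 3 fell (median -0.02). Gramd1b, which carries cholesterol from the plasma membrane inward, fell by 0.39 ± 0.062 and Abcg1, a cholesterol exporter, by 0.64 ± 0.12. Of 35 tested genes of other fatty acid and triglyceride synthesis steps, 9 rose and 0 fell (median 0.09). Dgat2, which makes the final step to triglyceride, went from a mean of 40 to 191.5, a rise of 2.23 ± 0.10, and Hacd2, of fatty acid elongation, rose by 0.70 ± 0.053. Of 18 tested genes of the isoprenoid branch and oxysterol metabolism, 3 rose and 0 fell (median 0.07), with Cyp7b1, an oxysterol hydroxylase, up by 0.57 ± 0.058 and Nus1, of dolichol synthesis, by 0.20 ± 0.050.

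The second comparison asks what dexamethasone changes when myoglobin is present, and it shares the myoglobin libraries with the first. No member passed in either direction: limma called 0 of 33 against 6 at an unadjusted p below 0.05. Of all genes tested, 6.98% were called, 3.08% higher and 3.9% lower. The median change was 0.06 in the sterol arm, with a range of -0.07 to 0.17, 0.12 in the fatty acid arm and 0.08 among the regulators, against 0.01 over all tested genes. The groups were apart upward for Fasn, Scd1 and Insig2 and downward for Acaca, where 7.03% and 6.19% of all genes were apart upward and downward. The 6 members at an unadjusted p below 0.05 were Scd1, Scd2, Fasn, Acaca, Srebf1 and Mylip, and 22.2% of all genes tested were below that p.

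Scd1 came nearest, with 2053, 2024, 1925 and 2591 under both agents after 1777 to 1890 with myoglobin alone. Its change was 0.21 ± 0.071 (limma adjusted p 0.094), and 0.11 ± 0.033 without replicate 4 (adjusted p 0.0418). Fasn read 3509, 3503, 3493 and 4524 under both agents, at 0.18 ± 0.076, and at 0.09 without replicate 4. Scd2 and Srebf1 stood at 0.21 ± 0.090 and 0.14 ± 0.061, and at 0.08 and 0.06 without it. Mylip stood at 0.13 ± 0.053, and at 0.14 without it. Acaca went the other way, with 473, 521, 506 and 512, all below its myoglobin libraries, at -0.13 ± 0.052 (adjusted p 0.152). In the sterol arm Mvd read 460, 485, 509 and 617, inside and above its myoglobin range, at 0.08 ± 0.10. Lss, Idi1 and Sc5d stood at 0.03 ± 0.081, 0.02 ± 0.11 and 0.01 ± 0.043, and Fdps at -0.07 ± 0.093.

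Replicate 4 under both agents read higher than the mean of replicates 1 to 3 for 32 of 33 members, by a median of 0.32 on the log2 scale, and Mylip was the exception at -0.04. Over all tested genes its median deviation went from -0.21 below 0.03 values per exonic base to 0.40 above 0.3, and among the members it followed the value per base (Spearman rho 0.679 across genes). Without it the median change with dexamethasone was -0.01 in the sterol arm, 0.02 in the fatty acid arm and -0.02 among the regulators. Then 13 of 33 members were above 0, against 28 with it. Scd1 was called higher and Scap lower (-0.11 ± 0.031, adjusted p 0.0358), at 4.04% and 4.78% of all genes. All 6 epithelial markers also had changes above 0 with dexamethasone (median 0.20, range 0.11 to 0.22), 0 of them called and 4 at an unadjusted p below 0.05. Without replicate 4 their median was 0.07 and 1 was called, and the part of this movement in the members' values was not tested.

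Of the further lists under dexamethasone, 0 of 19 genes of SREBP transport and turnover and 0 of 18 of the isoprenoid branch passed. At an unadjusted p below 0.05 there were 4 and 0. Over all genes tested, 3.08% were called higher and 3.9% lower, and 22.2% were below that p. Of 21 LXR and efflux genes 1 rose: Gramd1b, by 0.27 ± 0.062, after its fall with myoglobin. Of 35 other fatty acid and triglyceride genes 4 rose and 0 fell. Acsl1 and Acsl4, which activate fatty acids to their CoA form, rose by 0.32 ± 0.069 and 0.25 ± 0.056, and Agpat3 and Acacb were the others.

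**Figure D5:**
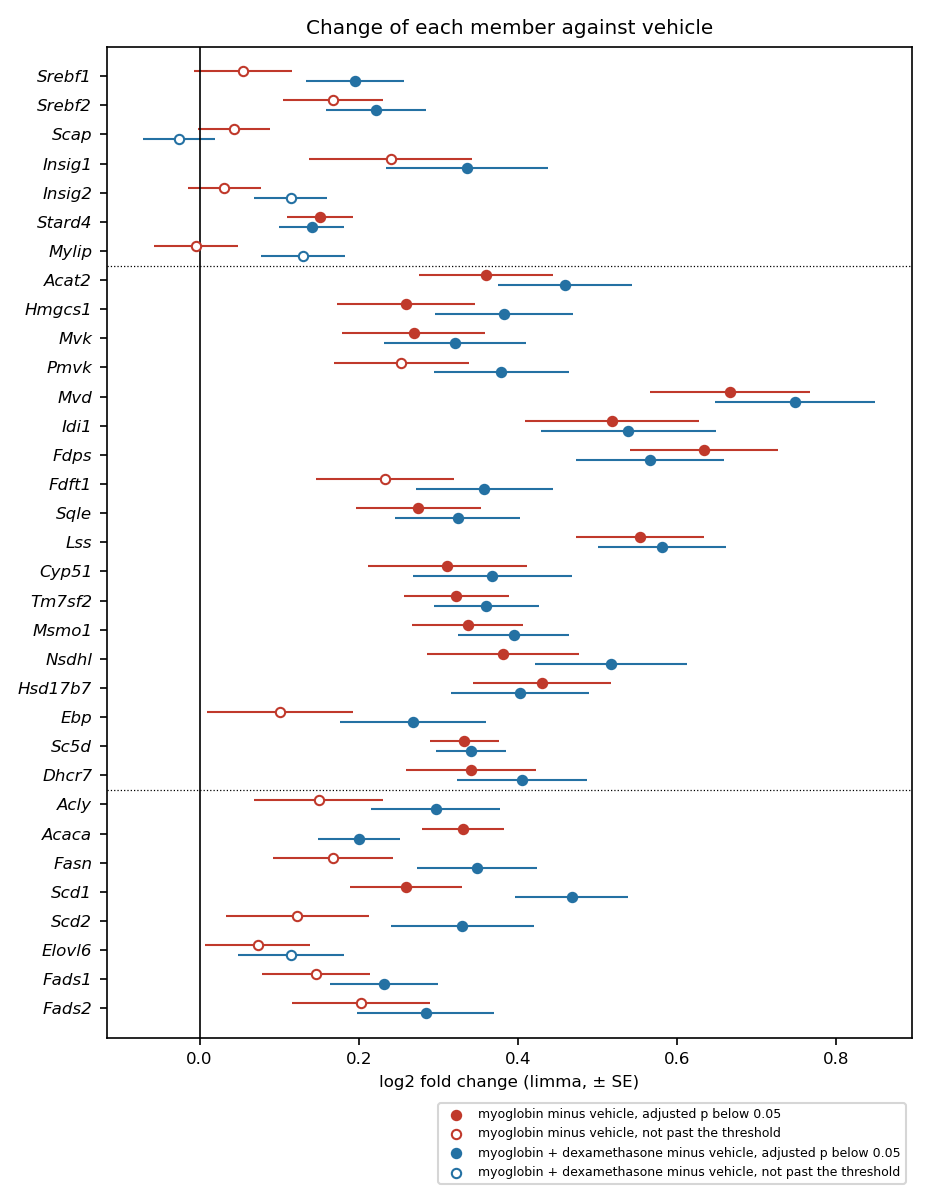
log2 fold change against vehicle (points, with bars of ± 1 SE from limma) for myoglobin and for myoglobin with dexamethasone; filled points passed an adjusted p of 0.05. With both agents all 18 sterol enzymes are filled, and with myoglobin alone 15 are.

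The third comparison sets both agents against vehicle. It shares libraries with each of the others. All 18 sterol enzymes, 7 of 8 fatty acid enzymes and 4 of 7 regulators were called higher and none lower, where 13.9% of all genes were called higher and 14.6% lower. With upper-quartile scaling the calls over all genes were 1590 higher and 2602 lower in place of 2029 and 2132, and 28 members were still called higher, Ebp being lost. Quantile normalization called 26 members, with Fads2, Srebf1 and Stard4 lost. Fitting only the 2 groups compared called 27, with Ebp and Srebf1 lost. Array weights and the replicate block each called 30, with Mylip gained. In the main fit the median change was 0.39 in the sterol arm, 0.29 in the fatty acid arm and 0.14 among the regulators, against 0.00 over all genes. Without replicate 4 these medians were 0.31, 0.19 and 0.12, with 17 of 18, 7 of 8 and 4 of 7 called higher, at 14.7% of all genes. Ebp lost its call without any of 8 libraries (vehicle replicates 1 to 3, myoglobin replicates 2 and 3, and replicates 2 to 4 under both agents). Srebf1 and Fads2 lost theirs without vehicle replicate 1, 2 or 3, Insig1 without vehicle replicate 1 or 2, and Stard4 and Fads1 without vehicle replicate 3. Insig2 (0.11 ± 0.046) gained a call without replicate 3 under both agents.

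Mvd was again the most changed, at 0.75 ± 0.10 against vehicle (limma adjusted p 5.44e-05). Lss stood at 0.58 ± 0.081, Fdps at 0.57 ± 0.093, Idi1 at 0.54 ± 0.11 and Nsdhl at 0.52 ± 0.096, all past the threshold. In the fatty acid arm Scd1 rose most, by 0.47 ± 0.071, then Fasn by 0.35 ± 0.076 and Scd2 by 0.33 ± 0.090. Elovl6 was the enzyme that did not pass (0.12 ± 0.066, and 0.04 without replicate 4). Of the regulators Srebf1, Srebf2, Insig1 and Stard4 passed, at 0.20 ± 0.061, 0.22 ± 0.063, 0.34 ± 0.10 and 0.14 ± 0.041, and Scap stood at -0.03 ± 0.045. The changes of Srebf1, Srebf2 and Insig1 depend on replicate 4 for their size, at 0.12, 0.14 and 0.21 without it. Those of Scd2, Acly, Fads1 and Fads2 were likewise 0.20, 0.19, 0.15 and 0.18 without it. Sterol enzymes shrank too: Cyp51, Fdft1, Hmgcs1 and Sqle went from 0.37, 0.36, 0.38 and 0.32 to 0.25, 0.25, 0.27 and 0.23. Mvd, Lss, Fdps and Idi1 shrank less, to 0.66, 0.55, 0.55 and 0.51.

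Over all genes tested, 13.9% were called higher and 14.6% lower with both agents against vehicle. Among the further lists in this comparison, 18 of 35 other fatty acid and triglyceride genes rose and 1 fell. Dgat2 rose by 2.02 ± 0.10 and Hacd2 by 0.66 ± 0.053. Of the SREBP transport and turnover genes 6 of 19 rose and 1 fell, led by Rnf145 (0.60 ± 0.046) and Sec24b (0.34 ± 0.044). Of the LXR and efflux genes 5 of 21 rose and 1 fell, with Osbp, an oxysterol-binding protein, at 0.17 ± 0.038 and Nceh1, a cholesteryl ester hydrolase, at 0.20 ± 0.047. Of the isoprenoid and oxysterol genes 4 of 18 rose and 0 fell, led by Cyp7b1 (0.63 ± 0.058) and Nus1 (0.30 ± 0.050).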

How the data were processed

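Messenger RNA libraries of 12 samples were compared, 4 per treatment. Tools listed in the submitters' processing notes are featureCounts 2.0.3, STAR 2.7.10a, DESeq2 1.36.0, Trimmomatic 0.39 and Picard 2.27.4, with mm10 as the build; what each tool did is not given in the sources used here. The deposited values are used as a score: whole numbers, some of which are skipped or doubled in frequency in most libraries, so they are read here as reads scaled per library and rounded by the authors, not raw counts. The 14558 genes that reached 10 in 4 or more libraries entered a single limma-trend fit of the 3 treatments (limma 3.58.1, R 4.3.3), after a pseudocount of 1 was added and log2 taken. Each of the 3 comparisons had its two-sided p-values adjusted by the Benjamini-Hochberg method across all fitted genes. Fold changes on this scale slightly understate low genes. The depth per sample is given only as the sum of values. The fit code was also run on simulated data, made with the same dispersion for all genes, no replicate effect and no deviant library. That run therefore says nothing about how the fit handles such features. Exonic lengths and coordinates follow GENCODE M21, whose coordinates equal those of the table for all 33 members. Transcript copies were sought with BLAST 2.17.0. Tables and plots used Python 3.11.15.

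All members are named, as are the 2 passing genes with the smallest p of each further list and comparison. Agpat3 and Acacb were named after their values were seen, as were the members singled out for their values. The members and lists were chosen with earlier results of these data known. Alternatives were other pseudocounts, no low-value filter, other scalings, array weights, fits of 2 groups, a replicate block and leaving out each library.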

Additional observations from a re-analysis of the deposited data

Results flagged for a closer look

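In each treatment the 4 libraries of every member were checked for a value that lies far from the other 3 relative to the whole range. This held in 14 of 99 sets. Chance gives about 1 in 20 for independent sets, but these share 12 libraries, so that rate cannot serve as a test of the count. In 9 of the 14 the value is the high one of replicate 4 of myoglobin with dexamethasone: Srebf2 at 2329 (others 1867 to 1892), Insig1 at 848 (576 to 618), Hmgcs1 at 1917 (1375 to 1440), Fdft1 at 749 (536 to 560), Tm7sf2 at 552 (443 to 460), Nsdhl at 839 (601 to 626), Acly at 2396 (1777 to 1855), Fasn at 4524 (3493 to 3509) and Fads1 at 1506 (1179 to 1224). In replicate 1 of the same treatment Fdps was low, at 144 (others 162 to 165). Replicate 1 of myoglobin was low for Sqle at 963 (others 1075 to 1084), Dhcr7 at 652 (695 to 702) and Fads1 at 1115 (1215 to 1231). Elovl6 was high in replicate 4 of vehicle, at 1365 (others 1274 to 1285).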

How the results depend on the processing

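Each of the 33 members was refitted under 22 alternatives in 3 comparisons, and no change in a called member reversed. Leaving out each library in turn gave 12 to 27 members called with myoglobin (all higher, 18 with every library), 24 to 29 with both agents against vehicle, and 0 to 2 with dexamethasone against myoglobin (0 to 1 higher, 0 to 1 lower). Over all genes these gave 2056 to 3794, 3157 to 4225 and 551 to 1284 calls, the lowest of the last without replicate 4 of myoglobin and 617 without its replicate 2, against 1016. Array weights called 4314 genes with myoglobin against 2669, and 1625 with dexamethasone, 1 member (1 lower) among them. Fitting only the 2 groups compared called 639 genes with dexamethasone. Replicate numbers did not establish pairs: 9 of 12 same-numbered pairs had deviations correlated above 0.1 (range -0.0151 to 0.456, median 0.161), against a median of -0.0511 and a range of -0.403 to 0.196 for pairs with other numbers. Set against each other treatment, a library correlated best with its own number in 20 of 24 cases, a hint from the data and not the design, and replicate 1 was lowest of its treatment for 25, 27 and 20 of the 33 members. With the replicate block, 25 members were called with myoglobin, 30 with both agents against vehicle and 3 with dexamethasone (3 higher: Fasn, Scd1 and Mylip). Over all genes the block called 3503, 5272 and 1788, against 2669, 4161 and 1016 in the main fit. The block without replicate 4 of myoglobin with dexamethasone, chosen after seeing the data, called 28 members (28 higher) and 5190 genes with myoglobin, and 4 members (3 higher, 1 lower) and 2105 genes with dexamethasone. In that fit the sterol arm's median change with dexamethasone was 0.03, with 12 of 18 enzymes above 0, where without the block and replicate 4 it was -0.01 with 5 of 18. Except where the alternative itself removes samples, the cause was not tested. Depth is known only through scaled values.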
